A study of Mus musculus with 24 samples.

Results

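The genes described here are 10 genes of protein folding in the endoplasmic reticulum (ER) and of the unfolded protein response (UPR), chosen by name from the 55487 genes of the deposited table. They are *Hspa5*, *Hsp90b1*, *Calr*, *Pdia4*, *Dnajb9*, *Sdf2l1*, *Creld2*, *Manf*, *Herpud1* and *Xbp1*. All 10 passed the filter on low counts and are among the 15401 genes tested. mRNA was sequenced from MEFs (mouse embryonic fibroblasts) of 2 genotypes, WT and *tfeb tfe3* DKO, in which the genes of the transcription factors TFEB and TFE3 were knocked out. Cells of each genotype received the vehicle DMSO, torin1, a catalytic inhibitor of MTOR, or MK-8722, an activator of AMPK, which gives 6 groups of 4 libraries. Ages of the embryos, doses and treatment times were not in the labels, nor was the number of MEF lines behind a genotype, so genotype and line cannot be told apart.

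The ER folds and modifies proteins that are secreted or inserted into membranes. When unfolded proteins build up in its lumen, the sensors IRE1, PERK and ATF6 start the UPR. IRE1 cuts a short stretch out of *Xbp1* mRNA so that it encodes an active transcription factor, ATF6 is released from the membrane by proteases in the Golgi, and PERK slows translation and raises the transcription factors ATF4 and CHOP. XBP1 and ATF6 act through short DNA elements upstream of chaperone genes. MTOR promotes protein synthesis, so the load of new proteins entering the ER is linked to its activity, and TFEB and TFE3 drive genes of lysosomes and autophagy.

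The best known of these elements, the ERSE (ER stress response element), has the letters CCAAT and CCACG separated by 9 bases, and ERSE-II has ATTGG and CCACG separated by 1 base. The 300 bases around each annotated start, 250 before and 50 after it, were searched on both strands in the RefSeq promoters (GRCm38.p6), which hold 9 of the 10 genes and not *Manf*. An ERSE was found in 39 of 32851 promoters, which is 0.119%, and 4 of the 9 were among them, those of *Hspa5*, *Hsp90b1*, *Calr* and *Creld2*. ERSE-II was found in 0.0365% of promoters, among them that of *Herpud1*. The 10 genes were chosen by name as genes of ER folding and of the UPR, so these shares are a description and no test. All ERSE and ERSE-II sites found in the 9 are shown, because these elements are the link between the UPR and its genes. Neither element was found for *Xbp1*, *Sdf2l1*, *Pdia4* or *Dnajb9*. Their log2 fold changes with torin1 in WT were -1.34, -1.07, -0.22 and 0.56. Genes with a site had -1.24 (*Hspa5*), -0.36 (*Hsp90b1*, with 2 sites), -0.61 (*Calr*), -0.70 (*Creld2*) and -1.58 (*Herpud1*). A link between sites and responses was not tested. The capitals mark the paired parts of each element, each line reads 5′ to 3′ on the strand of its gene with 8 bases on each side, and CGTGG and ATTGG are the same parts on the other strand.
*Hspa5*, chr2:34772017-34772051, plus strand: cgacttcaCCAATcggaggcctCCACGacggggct
*Hsp90b1*, chr10:86705630-86705664, minus strand: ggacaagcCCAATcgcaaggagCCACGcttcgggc
*Hsp90b1*, chr10:86705525-86705559, minus strand: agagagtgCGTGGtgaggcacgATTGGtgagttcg
*Calr*, chr8:84847067-84847101, minus strand: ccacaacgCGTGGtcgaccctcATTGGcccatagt
*Creld2*, chr15:88819512-88819546, plus strand: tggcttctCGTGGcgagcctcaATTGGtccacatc
*Herpud1*, chr8:94386369-94386395, plus strand: gggcgctgATTGGgCCACGttggacac

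The site of *Hspa5* begins 65 bases before the start and that of *Herpud1* 52 bases before it. The UPRE (TGACG followed directly by TGG) was in 0.676% of all promoters and an ATF4 element (TGATG, any base, AAT) in 0.965%, and neither was in any of the 9. The E-box CACGTG, the core of the sites that TFEB and TFE3 bind, was in 7.15% of all promoters and in those of *Calr* and *Dnajb9*. The longer CLEAR motif, which is CACGTG with GT before it and AC after it and so overlaps the E-box, was in 0.326% and was found for *Calr* alone among the 9. A match of letters is a description of the sequence and not a bound site. *Dnajb9* was the member that moved the other way with torin1, at log2 fold changes of 0.56 in WT and 0.52 in DKO. *Calr*, which holds both motifs, had -0.61 and -0.80. A link between these motifs and the responses was not tested. The 250 bases before the start of *Dnajb9*, with the E-box in capitals, are shown for comparison.
*Dnajb9*, chr12:44210069-44210318, minus strand: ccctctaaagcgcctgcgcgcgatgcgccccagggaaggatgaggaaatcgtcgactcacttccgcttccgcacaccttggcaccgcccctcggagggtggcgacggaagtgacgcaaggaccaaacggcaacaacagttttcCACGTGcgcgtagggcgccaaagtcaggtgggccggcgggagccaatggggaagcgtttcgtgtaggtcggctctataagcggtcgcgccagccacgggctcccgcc

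The libraries held 24668870 to 33332507 estimated counts each. RNA integrity numbers were 7.9 for the DKO library with MK-8722 of passage 10 and 9.7 to 9.9 for the others. Levels are given as CPM, counts relative to library sizes scaled by the trimmed mean of M-values (TMM). In such bulk libraries, fewer cells of a type and less RNA per cell cannot be told apart. The 4 libraries of a group came from cultures of different passages, 7, 8, 9 and 11 for WT and 8, 9, 10 and 11 for DKO, and the p-values measure the spread between these cultures. *Tfeb* was at 22.9 ± 1.74 CPM (SD, n = 4) in WT and 2.25 ± 0.289 CPM in DKO with DMSO, whereas *Tfe3* mRNA was at 120 ± 1.17 and 124 ± 2.11 CPM. Which part of *Tfe3* was deleted is not given in the sources used here, so its mRNA level does not check the label. All 10 fibroblast markers passed the filter and summed to between 6364 and 10160 CPM, although *Thy1* was at 0 in every library of DKO with DMSO and with torin1. Summed markers of macrophages and leukocytes (2.17 to 14.7 CPM, *Adgre1* at 0 in every group), epithelium (2.83 to 14.6 CPM), endothelium (0.12 to 1.37 CPM) and skeletal muscle (3.44 to 10.7 CPM) were low, those of leukocytes were highest with MK-8722 in each genotype, and those of neural cells, 274 to 521 CPM, were lower with torin1 than with DMSO in WT and higher in DKO. Their part in the results was not tested.

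The 10 genes span a wide range of levels. Compared per length, as TPM summed over the transcripts of a gene, the order in WT with DMSO ran from *Calr* at 1054 ± 109 TPM through *Hspa5* at 612 ± 47.2 and *Hsp90b1* at 524 ± 47.6 to *Manf* at 186 ± 8.19, *Pdia4* at 123 ± 9.81, *Herpud1* at 104 ± 15.1, *Creld2* at 81.1 ± 3.15, *Xbp1* at 40.6 ± 1.75, *Sdf2l1* at 38.2 ± 1.47 and *Dnajb9* at 5.21 ± 1.02 TPM. The neighbours *Hspa5* and *Hsp90b1*, *Pdia4* and *Herpud1*, *Herpud1* and *Creld2*, and *Xbp1* and *Sdf2l1* had overlapping libraries and did not differ beyond their spread. With torin1 in DKO the order was different, as *Herpud1* at 17.4 ± 2.27 TPM lay next to last, with libraries that overlapped those of *Sdf2l1* and of *Dnajb9* at 15.7 ± 4.33 TPM.

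**Figure D1:**
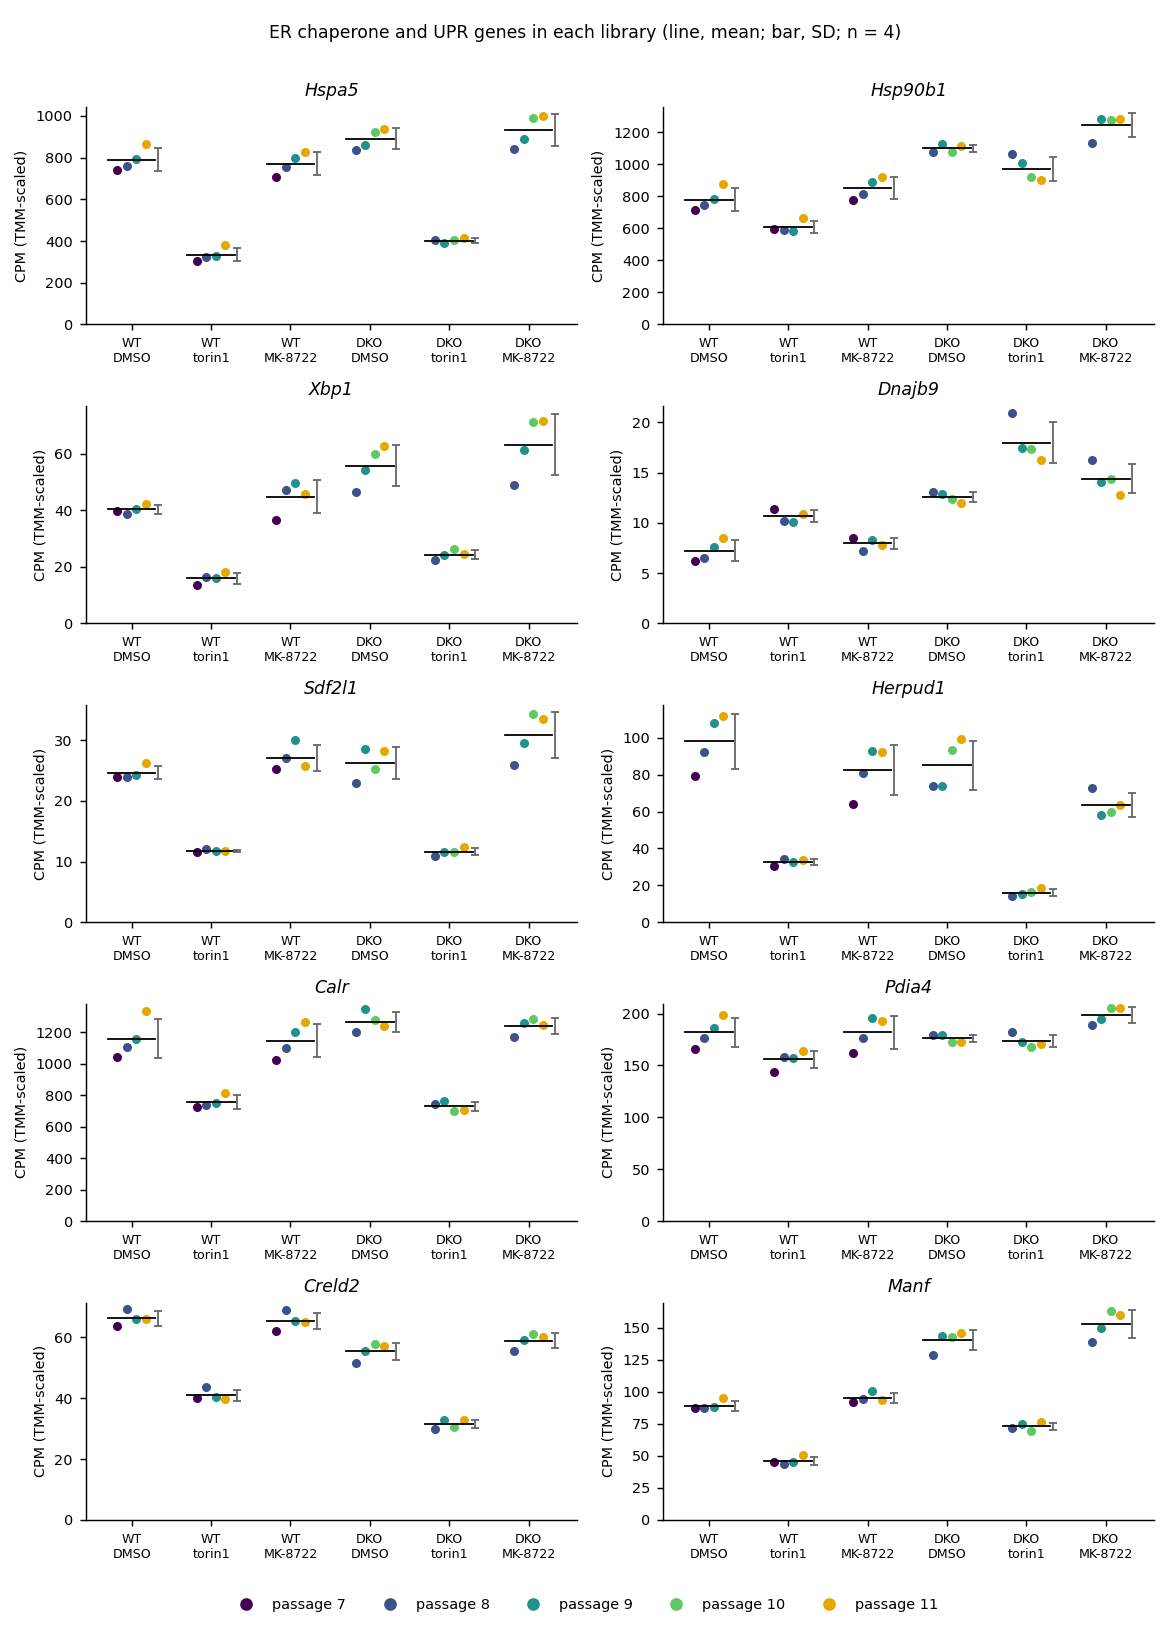
CPM of each of the 10 genes (y axis, from 0) in the 24 libraries, by group (x axis), with points coloured by passage, the mean as a line and the SD as a bar (n = 4). With torin1, 9 genes lay below DMSO in every WT library, and *Dnajb9* lay above it in both genotypes.

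Torin1 lowered the mRNA of most of these genes in WT MEFs. Of the 10 genes, 8 were called lower, which required an adjusted p under 0.05 together with a change of 1.2-fold or more, and 1 was called higher, where over all genes tested 20.5% were called lower and 26.6% higher. Their median log2 fold change was -0.82, and that of all genes was 0.05. In 9 of the 10 every torin1 library was below every DMSO library, as it was for 25.7% of all genes. In *tfeb tfe3* DKO MEFs 7 were called lower and 1 higher, with 20.2% and 23% over all genes, and the median log2 fold change of the 10 was -0.88. Here 8 lay wholly below DMSO and 1 wholly above it, as did 26.1% and 26.7% of all genes, and in WT the 1 gene wholly above was among 28.4% of all genes. The comparisons in WT and in DKO share no library, but each drug is compared with the same DMSO libraries of its genotype. Without the 3 WT libraries of passage 11 or the 3 DKO libraries of passage 8, which were left out after the data were seen, the numbers of genes called lower or higher with torin1 were as given here.

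The main chaperone of the ER lumen, *Hspa5* (ENSMUSG00000026864, chr2:34771970-34777547 on GRCm38, as all coordinates here), encodes BiP, an HSP70 protein that binds unfolded chains and holds the UPR sensors inactive. In WT with DMSO it was at 739, 761, 793 and 865 CPM in passages 7, 8, 9 and 11, and with torin1 at 305, 324, 327 and 379 CPM. No torin1 library came near those with DMSO, and within a passage the log2 ratio lay between -1.28 and -1.19. The log2 fold change was -1.24 ± 0.07 (SE), a 2.37-fold lower level (edgeR, adjusted p = 5.82e-13). In DKO it was at 835, 861, 924 and 939 CPM with DMSO and at 389 to 413 CPM with torin1, with a log2 fold change of -1.15 ± 0.07 (edgeR, adjusted p = 2.4e-12). The response in DKO minus that in WT was 0.10 ± 0.09 (edgeR, adjusted p = 0.56).

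*Hsp90b1* (ENSMUSG00000020048, chr10:86690209-86705509), which encodes the ER-resident HSP90 protein GRP94, moved less. It fell from 712, 743, 785 and 874 CPM to 597, 587, 584 and 663 CPM in WT, with no overlap and a log2 fold change of -0.36 ± 0.07 (edgeR, adjusted p = 5.52e-05). That call was lost with limma on log2(TPM + 0.5) and in the test against a fold change of 1.2. In DKO the level was 1077, 1124, 1079 and 1113 CPM with DMSO and 1061, 1007, 919 and 903 CPM with torin1 in passages 8 to 11, a log2 fold change of -0.18 ± 0.07, which was under the 1.2-fold limit. The lectin chaperone *Calr* (ENSMUSG00000003814, chr8:84841850-84846934), calreticulin, which binds glycoproteins and calcium, was at 1041 to 1335 CPM with DMSO and 724 to 818 CPM with torin1 in WT. Its log2 fold changes were -0.61 ± 0.07 in WT and -0.80 ± 0.07 in DKO (edgeR, adjusted p = 3.4e-08 and 6.08e-10).

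Of the thiol enzymes and co-chaperones, *Pdia4* (ENSMUSG00000025823, chr6:47796141-47813430), a protein disulfide isomerase, moved least. It was at 166, 176, 186 and 199 CPM with DMSO and 144, 158, 157 and 164 CPM with torin1 in WT, which do not overlap but differ by a log2 fold change of -0.22 ± 0.06, under the 1.2-fold limit. In DKO its libraries overlapped, at 173 to 179 and 168 to 182 CPM. *Sdf2l1* (ENSMUSG00000022769, chr16:17130138-17132383), a partner of ER DnaJ proteins, was at 24 to 26.2 CPM with DMSO and 11.5 to 12 CPM with torin1 in WT, and at 22.9 to 28.5 and 11.0 to 12.4 CPM in DKO. Its log2 fold changes were -1.07 ± 0.08 and -1.18 ± 0.08 (edgeR, adjusted p = 1.02e-10 and 2.99e-11).

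*Creld2* (ENSMUSG00000023272, chr15:88819646-88826683), an ER-resident disulfide isomerase-like protein, was at 63.6 to 69.5 CPM with DMSO and 39.9 to 43.6 CPM with torin1 in WT, and its log2 fold changes were -0.70 ± 0.05 in WT and -0.82 ± 0.05 in DKO. *Manf* (ENSMUSG00000032575, chr9:106838312-106891979), a secreted trophic factor that also binds BiP, was at 87.1, 87.1, 87.9 and 94.9 CPM with DMSO and 45.0, 43.9, 45.1 and 50.8 CPM with torin1 in WT. The passages were alike in this, with log2 ratios within a passage of -0.99 to -0.90 in WT and -1.04 to -0.84 in DKO. Its annotated span overlaps 4 other genes on the genome, of which only *Rbm15b* is on the same strand, so part of its counts could be assigned differently. The spans of *Hsp90b1*, *Pdia4*, *Dnajb9* and *Herpud1* also overlap other annotated genes.

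*Dnajb9* (ENSMUSG00000014905, chr12:44205559-44210326) encodes ERdj4, a co-chaperone of BiP in degradation and in the control of IRE1, and it rose with torin1. Its levels in WT were 6.24, 6.53, 7.63 and 8.52 CPM with DMSO and 11.4, 10.2, 10.1 and 10.9 CPM with torin1. All torin1 libraries lay above all DMSO libraries, and the log2 ratio was 0.87 in passage 7 and 0.36 in passage 11. The fitted log2 fold change was 0.56 ± 0.10 (edgeR, adjusted p = 2.47e-05). In DKO it was at 13.1, 12.9, 12.4 and 12 CPM with DMSO and 20.9, 17.4, 17.3 and 16.3 CPM with torin1 in passages 8 to 11, with a log2 fold change of 0.52 ± 0.09 (edgeR, adjusted p = 4.27e-05). Per length it had the lowest mean level of the 10 genes in each group, although with torin1 in DKO its libraries overlapped those of *Herpud1* and *Sdf2l1*.

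*Herpud1* (ENSMUSG00000031770, chr8:94386438-94395377), a membrane protein of the ER degradation complex, fell most, and it fell more in DKO. In WT it was at 79.4, 92.5, 108 and 112 CPM with DMSO and at 30.6, 34.2, 32.6 and 33.8 CPM with torin1 in passages 7, 8, 9 and 11, a 2.99-fold lower level (log2 fold change -1.58 ± 0.13, edgeR, adjusted p = 2.63e-10). In DKO it was at 73.8, 74.0, 93.3 and 99.3 CPM with DMSO and at 14.3, 15.2, 16.2 and 18.6 CPM with torin1, a 5.29-fold lower level (log2 fold change -2.40 ± 0.13, edgeR, adjusted p = 7.96e-13). The torin1 libraries of DKO all lay below those of WT. The log2 ratio within a passage was -1.73 to -1.38 in WT and -2.52 to -2.28 in DKO.

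The difference between these responses, DKO minus WT, was -0.82 ± 0.18 for *Herpud1* (edgeR, adjusted p = 0.00258). It was the 1 gene of the 10 called in that comparison, in which 6.33% of all genes were called lower and 4.68% higher. For the other 9 genes the difference lay between -0.18 and 0.20 and was not called. Without the WT torin1 library of passage 11, *Hsp90b1* and *Pdia4* were also called, each with a difference of 0.27.

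*Xbp1* (ENSMUSG00000020484, chr11:5520659-5525893), the transcription factor gene whose mRNA IRE1 cuts, was at 39.8, 38.6, 40.5 and 42.2 CPM with DMSO and at 13.4, 16.3, 16.1 and 18 CPM with torin1 in WT. In DKO it was at 46.3, 54.1, 60.0 and 62.6 CPM with DMSO and at 22.3, 24, 26.1 and 24.5 CPM with torin1 in passages 8 to 11. The groups did not overlap in either genotype. The log2 fold changes were -1.34 ± 0.12 in WT and -1.20 ± 0.12 in DKO (edgeR, adjusted p = 1.37e-09 and 6.11e-09).

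**Figure D2:**
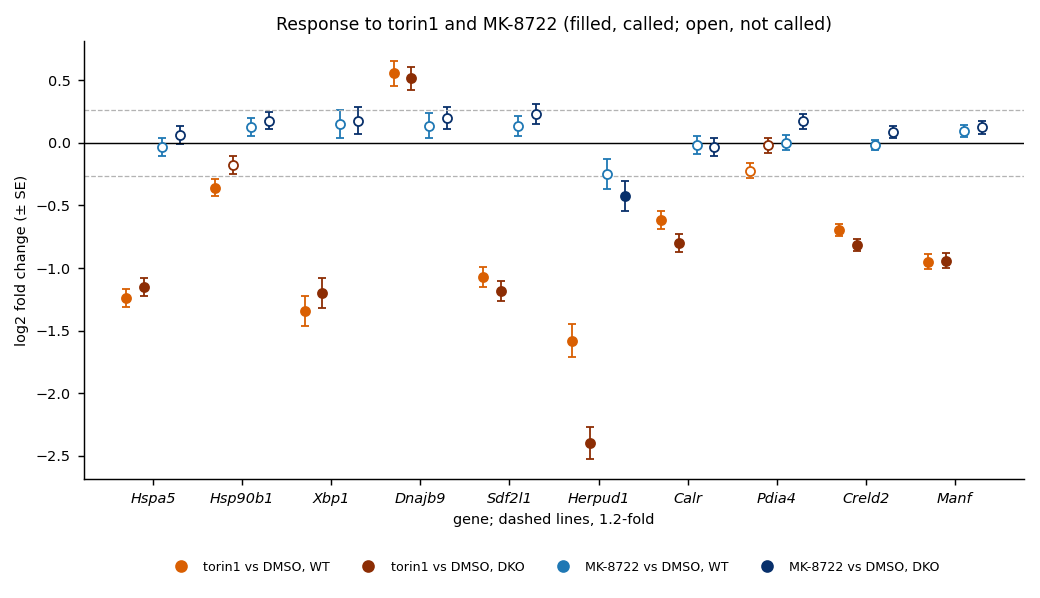
Fitted log2 fold change with SE (y axis) of each gene (x axis) for torin1 and MK-8722 against DMSO in WT and in DKO, filled where called, with dashed lines at 1.2-fold. The torin1 points lie below 0 for 9 genes, down to -2.40 for *Herpud1* in DKO, and those of MK-8722 lie between -0.42 and 0.23.

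The files also split *Xbp1* counts over 5 annotated transcripts. The IRE1 site was located in the transcript ENSMUST00000063084 of GENCODE as the single place where the loop letters CNGCAGC occur 26 bases apart. It lies in exon 4 at chr11:5524279-5524304 on GRCm38, plus strand, and is printed with 12 bases on each side and the 26 bases that are removed in capitals.
*Xbp1*: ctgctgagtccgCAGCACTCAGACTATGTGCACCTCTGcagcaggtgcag

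The reading frame from the annotated start codon is 804 bases with this stretch and 1116 bases without it, stop codon included. The annotation of the deposited files holds a second main transcript, ENSMUST00000239150, whose length is 1116 bases, which equals that of the frame without the stretch. Its sequence was not at hand, and an equal length does not show an equal sequence. In WT with DMSO it took 19.9, 23.1, 24.7 and 24.2% of the *Xbp1* counts, from 239 to 340 counts a library, and with torin1 13.2, 19, 18.3 and 17.8%, from 56.2 to 98.0 counts. The torin1 shares lay below the DMSO shares, at a difference of -5.89 percentage points (two-sided exact permutation test, p = 0.0286, the smallest that 4 against 4 allows, and 0.267 after adjustment over 14 tests). These are shares of counts, and the other main transcript is longer, at 2129 bases. Compared per length, as a share of the *Xbp1* TPM, ENSMUST00000239150 took 35.1% ± 2.81 with DMSO and 27.2% ± 4.04 with torin1 in WT (SD, n = 4).

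In DKO the shares of counts were 22.2% ± 1.01 with DMSO and 20.4% ± 3.22 with torin1 and overlapped. None of the 14 tests over 2 transcripts and 7 comparisons passed the adjustment, and at an unadjusted p under 0.05 this 1 did. The level of this transcript fell with that of the gene, from 14.2 ± 1.64 to 4.49 ± 1.11 TPM in WT and from 18.7 ± 3.12 to 7.68 ± 0.932 TPM in DKO, with no overlap. The *Xbp1* transcripts share sequence, so a pair of 52 bp reads can fit several of them, and salmon's shares are estimates.

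**Figure D3:**
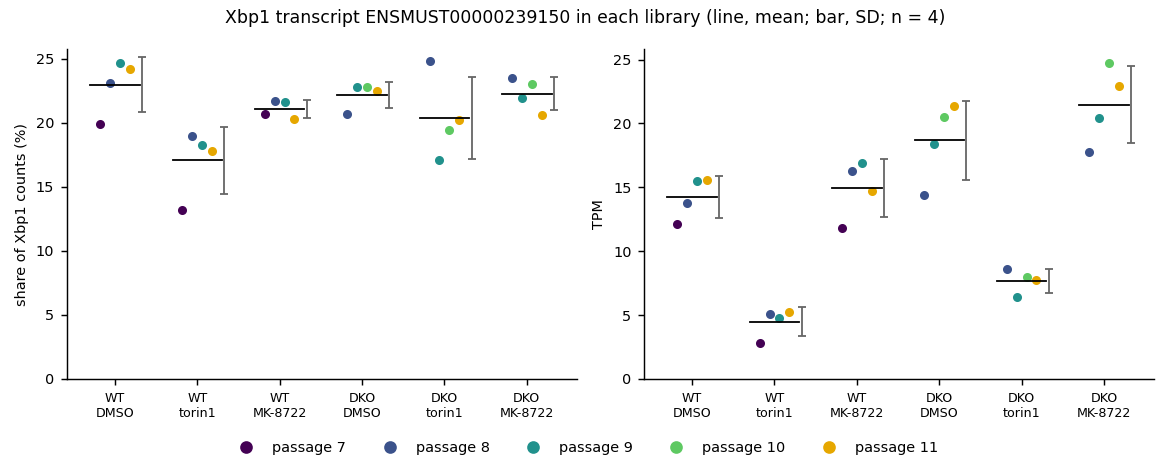
Share of the *Xbp1* counts (left, percent) and level (right, TPM) of the transcript ENSMUST00000239150 in each library by group, with points coloured by passage, the mean as a line and the SD as a bar (n = 4). The share was 13.2 to 19% with torin1 and 19.9 to 24.7% with DMSO in WT, and the level was lower with torin1 in each genotype.

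With MK-8722 few of the 10 genes passed the test. In WT none of the 10 was called, 0 had an unadjusted p under 0.05 in edgeR, where 10.3% of all genes were called higher and 5.87% lower. In 0 of the 10 did all MK-8722 libraries lie above or below all DMSO libraries, as they did for 15% and 14.8% of all genes. The log2 fold changes lay between -0.25 and 0.15 with SE of 0.04 to 0.12. *Hspa5* was at 705, 753, 799 and 828 CPM with MK-8722 in WT, within the range of DMSO apart from the library of passage 7. *Xbp1* was at 36.4, 47.2, 49.7 and 45.7 CPM. DESeq2's Wald test called 0 of the 10 as well. DMSO and MK-8722 libraries of WT that share a passage deviated together, and within a passage *Herpud1* was lower in 4 of 4, with log2 ratios of -0.31, -0.20, -0.22 and -0.27, and *Hsp90b1* higher in 4 of 4, at 0.07 to 0.19. With passage as a block these had log2 fold changes of -0.25 and 0.13 (edgeR, adjusted p = 0.0107 and 0.0277), under the 1.2-fold limit, and 0 of the 10 was called.

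In DKO *Herpud1* was called lower with MK-8722 and no gene was called higher, where 3.21% of all genes were called lower and 5.47% higher. Most changes were small rises, as 8 of the 10 genes had a log2 fold change above 0 and 2, *Herpud1* and *Calr*, below it. Their median was 0.15, and that of all genes was 0. An unadjusted p under 0.05 in edgeR was reached by 6 of the 10, *Herpud1* among them. *Herpud1* lay wholly below DMSO, as did 9.64% of all genes, and *Hsp90b1* and *Pdia4* lay wholly above it, as did 11.4%. *Herpud1* was at 72.7, 58.1, 59.9 and 63.3 CPM with MK-8722, and at 73.8, 74.0, 93.3 and 99.3 CPM with DMSO, in passages 8 to 11. The groups did not overlap, but in passage 8 the log2 ratio was -0.02 and in passages 10 and 11 it was -0.64 and -0.65. The log2 fold change was -0.42 ± 0.12 (edgeR, adjusted p = 0.0157). The call was lost without the DMSO library of passage 10 or of passage 11 or the MK-8722 library of passage 9. *Sdf2l1* and *Pdia4* had adjusted p-values of 0.0331 and 0.0314 with log2 fold changes of 0.23 and 0.18, under the 1.2-fold limit.

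For a difference between genotypes in the response to MK-8722, 0 of the 10 genes were called, against 1.42% of all genes called higher and 4.08% lower. The 1 with an unadjusted p under 0.05 in edgeR was *Pdia4*, at 0.17 ± 0.08. With SE of 0.06 to 0.17, the lack of a call does not show equal responses. Torin1 against MK-8722 directly gave 8 genes lower and 1 higher in each genotype, with 20% lower and 24.9% higher over all genes in WT and 19.3% and 21.1% in DKO. The higher gene was *Dnajb9*, at 0.42 ± 0.10 in WT and 0.32 ± 0.09 in DKO. In DKO its libraries overlapped, and the call was lost without the MK-8722 library of passage 11 or the torin1 library of passage 8 and with limma on TPM. Without overlap, 8 genes lay below and 1 above in WT (25.6% and 26.5% of all genes), and 9 below and 0 above in DKO (25.2% and 24.7%). These values share the torin1 libraries with the comparisons above.

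*Manf*, *Dnajb9*, *Hsp90b1* and *Xbp1* were called higher in DKO than in WT cells under each treatment, and calls between genotypes were common among all genes. With DMSO 4 of the 10 were called higher and 0 lower, where 23.5% and 24.6% of all genes were. *Manf* was at 129, 144, 143 and 146 CPM in DKO and at 87.1 to 94.9 CPM in WT, a log2 fold change of 0.65 ± 0.05 (edgeR, adjusted p = 5.03e-10). *Dnajb9* was 1.73-fold higher (0.79 ± 0.10), *Hsp90b1* 1.41-fold (0.50 ± 0.07) and *Xbp1* 1.38-fold (0.47 ± 0.11). In all 4 genes every DKO library lay above every WT library, as was so for 28.4% of all genes.

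*Creld2* went the other way, at 51.6 to 57.8 CPM in DKO and 63.6 to 69.5 CPM in WT. Its log2 fold change of -0.257 missed the limit of 0.263 (edgeR, adjusted p = 2.99e-05), and it was called lower in 18 of the alternatives that covered this comparison. With torin1 5 genes were called higher and 2 lower, where 24% and 27.8% of all genes were, and the 2 were *Creld2* at -0.38 ± 0.05 and *Herpud1* at -1.03 ± 0.13. With MK-8722 5 were called higher and 1, *Herpud1* at -0.38 ± 0.12, lower, where 23.3% and 25.4% of all genes were. *Hspa5* was the fifth gene called higher in both, at 0.27 ± 0.07, just past the limit, and it lost the call in 7 alternatives with torin1 and in 12 with MK-8722. *Sdf2l1*, *Calr* and *Pdia4* were not called between genotypes under any treatment. With torin1 6 genes lay wholly above WT and 2 wholly below (28.6% and 31.7% of all genes), and with MK-8722 4 above and 1 below (26.7% and 27.9%), where *Xbp1* and *Herpud1* were called with overlapping libraries.

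**Figure D4:**
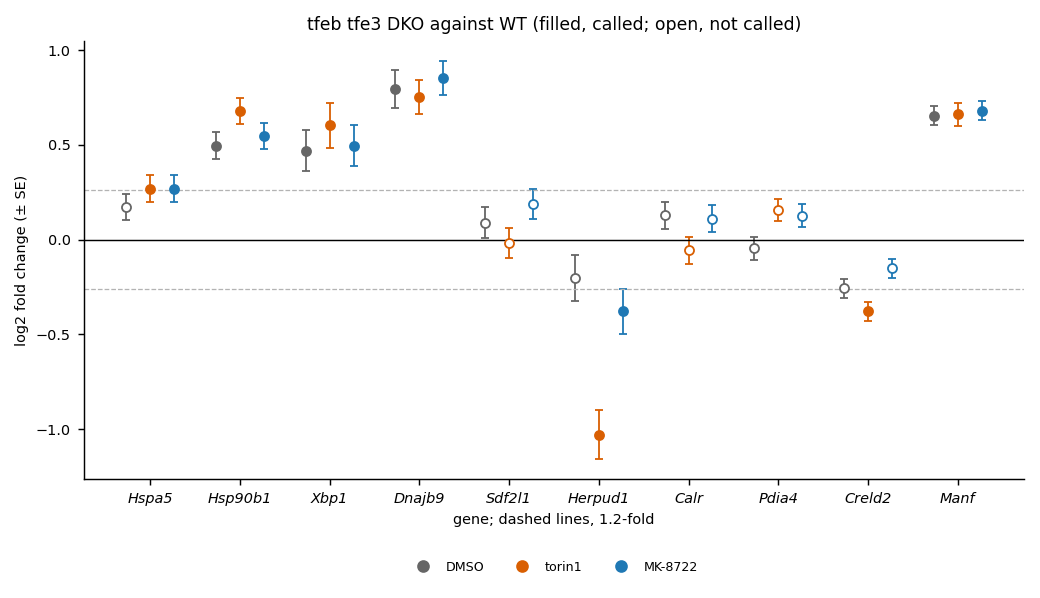
Fitted log2 fold change with SE (y axis) of DKO against WT for each gene (x axis) under DMSO, torin1 and MK-8722, filled where called, with dashed lines at 1.2-fold. *Manf* lay between 0.65 and 0.68 under the treatments, and *Herpud1* lay at -0.20 with DMSO and at -1.03 with torin1.

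Levels of the 10 genes also varied with passage. In WT *Hspa5* was lowest in passage 7 and highest in passage 11 under each of the treatments, as were *Calr* and, with DMSO, 6 further genes. The log2 deviation from the group mean, averaged over the 10 genes, was -0.11, -0.05, 0.03 and 0.13 in the DMSO libraries of passages 7, 8, 9 and 11. In DKO it was -0.10, 0.01, 0.03 and 0.06 with DMSO in passages 8 to 11 and -0.08, -0.03, 0.06 and 0.05 with MK-8722, whereas with torin1 it stayed between -0.02 and 0.02. In WT it was -0.07, 0.00, -0.02 and 0.09 with torin1 and -0.13, -0.02, 0.10 and 0.06 with MK-8722, so the order of passages was not the same in every group. *Xbp1* in DKO with MK-8722 was at 48.9, 61.2, 71.1 and 71.5 CPM in passages 8 to 11, and *Dnajb9* went the other way in DKO, from 13.1 to 12 CPM with DMSO and from 20.9 to 16.3 CPM with torin1. Passage and the culture or day it stands for cannot be told apart.

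As a description over the 24 libraries, which share the response to torin1, the log2 CPM of each gene was correlated with the mean of the other 9. Pearson r was 0.98 for *Xbp1*, 0.97 for *Hspa5*, 0.94 for *Manf* and 0.93 for *Sdf2l1* and *Calr*. It was lower for *Pdia4* (0.76), *Hsp90b1* (0.71), *Creld2* (0.68) and *Herpud1* (0.67), and -0.21 for *Dnajb9*. For deviations from the group means it was 0.88 for *Hspa5*, 0.48 for *Herpud1*, 0.37 for *Creld2* and -0.06 for *Dnajb9*. For the rest it was 0.6 to 0.81. The 10 of 15391 other genes whose log2 CPM was most like the mean of the 10 were *Surf4*, *Hyou1*, *Uso1*, *Kdelr2*, *Chmp3*, *Tmem248*, *Pdia6*, *Pofut2*, *D5Ertd579e* and *Trak2*, at r of 0.974 to 0.982. *Hyou1*, an HSP70-like chaperone, and *Pdia6*, a disulfide isomerase, are on the list of other ER chaperones. That list holds 5 and the degradation list 2 of the 50 most alike genes, and the remaining lists hold 0.

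The lists of related genes put the 10 in context. Over all genes, the median log2 fold change with torin1 was 0.05 in WT, where 20.5% were called lower and 26.6% higher, and 0.02 in DKO, where 20.2% and 23% were. Of 43 other ER chaperones and folding enzymes, 20 were called lower and 3 higher with torin1 in WT (median log2 fold change -0.21), and 20 and 2 in DKO (median -0.23). *Serpinh1*, the collagen chaperone, fell from 1009 ± 123 to 366 ± 35.8 CPM in WT and had log2 fold changes of -1.46 and -1.33, and *Dnajb11*, a co-chaperone of BiP, had -0.93 in WT. *Dnajc3*, another co-chaperone, had -1.01 in DKO. *Cdnf*, a relative of *Manf*, rose from 0.644 ± 0.126 to 2.18 ± 0.262 CPM in WT, a low level, with log2 fold changes of 1.75 and 1.57.

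The 14 genes of the PERK, ATF4 and CHOP arm had a median log2 fold change of -1.60 with torin1 in WT, with 12 called lower and 1 higher, and of -1.19 in DKO, with 11 and 0. *Trib3*, a pseudokinase, fell from 62.1 ± 7.29 to 4.04 ± 1.12 CPM in WT (log2 fold change -3.94) and had -4.12 in DKO. *Chac1*, an enzyme that degrades glutathione, had -3.05 in WT, and *Ddit4*, an inhibitor of MTORC1, had -3.48 in DKO. *Ppp1r15a*, which encodes the phosphatase subunit GADD34, rose with torin1 in WT at 0.31 ± 0.09. With MK-8722 in WT 3 of the 14 were called higher and 2 lower, where 10.3% and 5.87% of all genes were. *Ddit3*, which encodes CHOP, rose at 1.22 ± 0.20 from 14.6 ± 2.19 CPM and *Ppp1r15a* at 0.56 ± 0.09, and *Ddit4* fell at -0.53 ± 0.12 and *Asns*, the asparagine synthetase gene, at -0.43 ± 0.15. The response of *Ddit3* to MK-8722 in DKO minus that in WT was -1.14 ± 0.28 and that of *Ppp1r15a* -0.55 ± 0.12 (edgeR, adjusted p = 0.0118 and 0.0073).

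Of the 12 genes tested among 14 UPR sensors and their processing enzymes, 4 were called lower and 0 higher with torin1 in each genotype. The shares over all genes were 20.5% lower and 26.6% higher in WT, and 20.2% and 23% in DKO. *Creb3l1*, a membrane-bound relative of ATF6, had log2 fold changes of -1.42 in WT and -2 in DKO. *Atf6* itself rose with MK-8722, from 95.3 ± 6.33 to 147 ± 8.41 CPM in WT (0.63 ± 0.08) and from 130 ± 14.8 to 176 ± 20.2 CPM in DKO (0.43 ± 0.08), and *Eif2ak3*, which encodes PERK, rose in WT at 0.34 ± 0.10, whereas *Creb3l1* fell in WT at -0.78 ± 0.24. With MK-8722 4 of the 12 were called higher and 1 lower in WT, where 10.3% and 5.87% of all genes were. In DKO 1 was called higher and 0 lower, where 5.47% and 3.21% of all genes were. In DKO against WT with DMSO 4 were called higher and 2 lower, where 23.5% and 24.6% of all genes were. *Mbtps2*, a protease that cuts ATF6, was at 0.63 ± 0.06 and *Atf6* at 0.45 ± 0.08. *Tmbim6*, an ER membrane protein that restrains IRE1, was at -0.56 ± 0.05, and *Creb3l2*, a relative of *Creb3l1*, at -0.39 ± 0.10.

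In ER-associated degradation, 33 genes were tested, and torin1 gave 5 higher and 9 lower in each genotype, with a median of 0.02, which is near the median of all genes, beside 20.5% lower and 26.6% higher over all genes in WT. *Erlec1*, a lectin of that pathway, and *Ngly1*, which removes N-glycans, rose at 0.71 and 0.70 in WT, and *Ube2g2*, a ubiquitin-conjugating enzyme, fell at -0.92. With MK-8722 8 were called higher and 1 lower in WT, where 10.3% and 5.87% of all genes were, with *Selenok* at 0.52 ± 0.08, the mannosidase-like *Edem1* at 0.39 ± 0.05 and *Ubxn8* at -0.34. Of 36 genes of translocation, signal peptidase and glycosylation 21 were called lower and 0 higher with torin1 in WT, led by the oligosaccharyltransferase subunits *Ostc* at -0.91 and *Dad1* at -0.71. Of 28 cytosolic and mitochondrial chaperones 18 were called lower and 2 higher with torin1 in WT. *Hspa1b* was at -1.66 and the chaperonin subunit *Cct4* at 0.36. The median of these chaperones was -0.38 in WT and -0.34 in DKO, below the -0.21 and -0.23 of the other ER chaperones. With MK-8722 0 of them were called in WT.

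**Figure D5:**
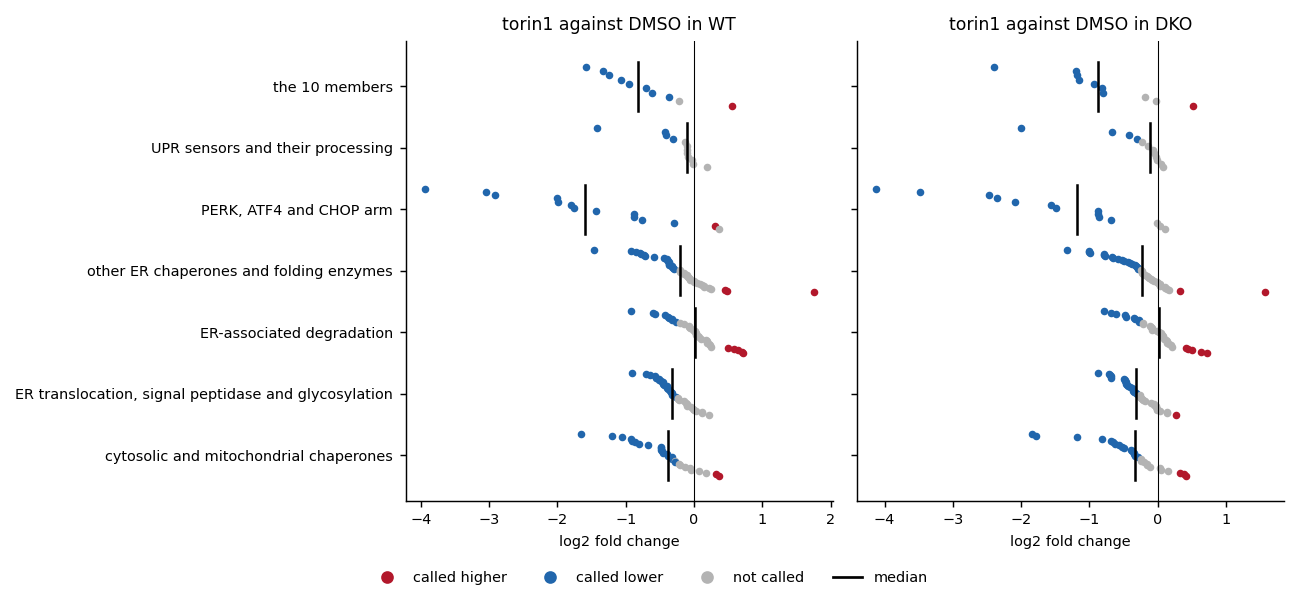
Fitted log2 fold change (x axis) with torin1 against DMSO in WT (left) and DKO (right) for the 10 genes and for 6 lists of related genes (rows), 1 point a gene, coloured by call, with the median as a line. The PERK, ATF4 and CHOP arm has the lowest median, at -1.60 in WT and -1.19 in DKO.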

How the data were processed

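Libraries of polyadenylated RNA from the 24 cultures were sequenced in paired reads of 52 bp. Processing by the authors used nf-core/rnaseq with STAR and salmon on GRCm38 with Ensembl release 102, took unique molecular identifiers into account, and the deposited tables hold, for genes and for transcripts, the estimated counts and the TPM of salmon. All columns were assigned to a sample from their names. Estimated counts were rounded to whole numbers. edgeR 4.0.16 (R 4.3.3) filtered genes with filterByExpr (minimum count 10), scaled library sizes by TMM and fitted all libraries with 1 mean per group by its quasi-likelihood method, with 18 residual degrees of freedom and a biological coefficient of variation of 10.7%. Genes were called at a Benjamini-Hochberg adjusted p under 0.05 over all 15401 genes and a fold change of at least 1.2, for 11 comparisons. The SE is the log2 fold change divided by the square root of F. TPM entered the order of levels and 1 alternative, limma on log2(TPM + 0.5). *Xbp1* shares were compared with scipy 1.17.1. The fit was tested on simulated data. Total counts set the depth, and the number of libraries limits the precision. The authors' limma batch removal was not repeated, since the batch is not named and the labels give 1 batch.

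The 10 genes and the lists were chosen with earlier results of these data known, and tests on them are no independent evidence. From each list the genes named are, per comparison described, the called genes with the largest log2 fold change, at most 2 in each direction. The 10 genes most alike are named by rank. The 36 pairs of libraries within groups differed by 3.80 to 39.2 times the counting noise per gene, so none was counted as a repeat. Pairs with a WT library of passage 11 were at 22.5 to 39.2, and all other pairs at 3.80 to 15.2. Deviations of libraries that share a passage within a genotype correlated at 0.022 to 0.657, with a median of 0.156 and 7 of 24 pairs at or under 0.1. Those that share a replicate number correlated at -0.414 to 0.657, with a median of 0.06. Passage within genotype thus paired the libraries in part, more than replicate number did, and the main fit did not pair them. For DMSO and MK-8722 libraries of WT all 4 passage pairs were above 0.1, at 0.136 to 0.657, and values with passage as a block are given for that comparison. Coordinates are those of GENCODE release 21 for mouse on GRCm38. Promoters come from RefSeq. Protein sequences were not used here.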

Additional observations from a re-analysis of the deposited data

Results flagged for a closer look

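*Herpud1* was flagged because its response to torin1 differed between genotypes, at -0.82 ± 0.18 for DKO minus WT on the log2 scale (edgeR, adjusted p = 0.00258). It kept this call in all 41 alternatives. The cause was not tested.

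Of 72 groups of 4 values examined, for the 10 genes and the shares of 2 *Xbp1* transcripts, 6 held a library far from the other 3, and chance flags about 1 in 20, which is 3.6 groups. In WT of passage 11 *Hsp90b1* was at 663 CPM with torin1 (others 584 to 597), *Sdf2l1* at 26.2 CPM with DMSO (others 24 to 24.3) and *Manf* at 94.9 CPM with DMSO (others 87.1 to 87.9). In DKO of passage 8 *Hsp90b1* was at 1130 CPM with MK-8722 (others 1274 to 1285), and the share of ENSMUST00000239150 was 20.7% with DMSO (others 22.5 to 22.8%). *Creld2* was at 43.6 CPM with torin1 in WT of passage 8 (others 39.9 to 40.3).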

How the results depend on the processing

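Over 41 alternatives, 24 of them leaving out a library and 2 added after seeing the data (without the passage 11 WT or the passage 8 DKO libraries), 4405 of 4480 values of the 10 genes kept their direction and call, 34 lost and 41 gained the call, and 0 called values reversed, whereas 69 uncalled values changed sign. Genes called lower in DKO against WT under DMSO were 1 instead of 0, *Creld2*, with at least 10 counts in every library, DESeq2 size factors, library size alone, limma on log2(TPM + 0.5), the DESeq2 Wald test, adjusted p alone, an effective length offset, only the groups compared, and without the passage 11 WT libraries. With the passage number as a replicate block they were 2, with *Herpud1* added at -0.29. That block lost the calls of *Hspa5* between genotypes under torin1 and MK-8722 and changed no other call. The replicate number as a block changed no call. Passage as a block within genotype changed none of the calls it covered, but it was not fitted to the comparisons of DKO against WT. With limma and with a test against 1.2-fold, *Herpud1* with MK-8722 in DKO left 0 genes lower and torin1 against MK-8722 in DKO 0 higher, the latter also with the length offset. The test against 1.2-fold further gave 0 lower in DKO against WT under MK-8722 and 0 higher for torin1 against MK-8722 in WT. Adjusted p alone gave 2 higher with MK-8722 in DKO and 2 lower in DKO against WT under MK-8722. In all it gained 11 calls. Among them were *Pdia4* lower with torin1 in WT (-0.22) and *Hsp90b1* lower with torin1 in DKO (-0.18). It also gained *Pdia4* lower for torin1 against MK-8722 in each genotype. Between genotypes it gained *Hspa5* under DMSO, *Pdia4* under torin1 and *Sdf2l1* under MK-8722, all higher in DKO. The cause was not tested, beyond the limits that these tests set.

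Leaving out 1 library, the numbers called ran from 0 to 1 (lower, MK-8722 in WT, where *Herpud1* was called at -0.34 without the DMSO library of passage 7), 0 to 1 (higher, MK-8722 in DKO), 0 to 1 (lower, MK-8722 in DKO), 0 to 2 (lower, DKO against WT under DMSO), 0 to 2 (higher, torin1 response in DKO minus WT) and 0 to 1 (higher, torin1 against MK-8722 in DKO). The 2 in DKO against WT under DMSO were *Creld2* and *Herpud1*, without the WT DMSO library of passage 7, and the 1 higher with MK-8722 in DKO was *Sdf2l1*, at up to 0.31. Library size alone moved the median of all genes in DKO against WT under torin1 from -0.04 to -0.16. At 4 libraries a group, changes near 1.2-fold cannot be placed on 1 side of the limit.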
